A study of Mus musculus with 16 samples.

Results

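Retinoic acid is made from vitamin A and controls genes through nuclear receptors, and 9 genes of this system were examined in the mouse seminal vesicle (SV). They encode the retinoic acid receptors (Rara, Rarb, Rarg) and their partner Rxra, the retinal dehydrogenases that make retinoic acid (Aldh1a1, Aldh1a2, Aldh1a3), and the proteins that bind it in the cytoplasm (Crabp1, Crabp2). The genes were taken by name from the 31274 genes of the expression table. All 9 passed the filter on low values, a mean above 1 FPKM (fragments for each kilobase of exon, scaled to the size of the library) in at least 1 group, and are among the 15988 genes tested.

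Retinol is carried in blood by Rbp4, taken up by cells, oxidised first to retinal and then irreversibly to retinoic acid by the Aldh1a enzymes. Retinoic acid binds receptors of the Rar family, which sit on DNA as heterodimers with a receptor of the Rxr family and switch target genes on, among them Rarb itself and the Cyp26 enzymes that destroy retinoic acid. Vitamin A is needed to keep glandular epithelia of the genital tract and prostate from turning into keratinised, stratified epithelium, and mice that lack Rarg are known to show this change in the SV and prostate.

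SVs were taken at week 5 from male C57BL/6 mice, and RNA-seq was done on 16 samples in 4 groups of 4. The WT-veh and WT-DES groups were wild-type mice, and the αERKO-veh and αERKO-DES groups lacked a functional Esr1, which encodes the oestrogen receptor ERα, in all tissues from conception on. The methods state that WT pups were born to purchased pregnant females, whereas αERKO mice were bred from heterozygotes. Genotype therefore cannot be told apart from the source of the mice in any comparison between αERKO and WT. DES (diethylstilboestrol), a synthetic oestrogen, was injected at 2 µg per pup per day from day 1 to day 5 of life in WT-DES and αERKO-DES, and the veh groups were given the corn oil vehicle alone. The SV was separated from the anterior prostate at dissection, and whole tissue was used, so that fewer cells of a type and less RNA per cell cannot be told apart. RNA was extracted from single mice in every group except WT-DES, for which the methods name 3 pools of mice. Since 4 WT-DES samples were deposited, how samples and pools correspond is not known, nor whether the 4 are independent, and p-values measure only the spread between these samples. The comparisons address whether neonatal DES alters these genes at puberty and whether the change differs in mice lacking ERα.

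The labels were checked with Esr1, which ranged from 2.81 to 4.55 FPKM in WT-veh, from 8.74 to 19.6 FPKM in WT-DES, from 1.30 to 1.75 FPKM in αERKO-veh and from 0.91 to 1.64 FPKM in αERKO-DES. No αERKO sample reached the level of a WT sample. The summed FPKM of a sample was 375207 to 437619 in WT-DES and 479045 to 652708 in the other groups, and the number of fragments behind the values is unknown. Markers of SV secretion, given as their mean log2(FPKM + 1), were at 12.6 to 12.8 in WT-veh and 7.86 to 9.78 in WT-DES, with all 7 of these genes lower in WT-DES. Fibroblast markers were at 6.43 to 6.70 in WT-veh and 8.01 to 8.11 in WT-DES, with 7 of 7 genes higher, and leukocyte markers at 1.26 to 1.59 and 2.76 to 3.98, with 10 of 10 higher. Prostate markers, among them Pbsn and Tgm4, were at 8.87 to 9.84 in WT-veh, 8.39 to 9.93 over the αERKO groups and 2.87 to 5.87 in WT-DES, with 4 of 4 genes lower in WT-DES. Of the other lists, 5 of 8 epithelial and 5 of 6 smooth muscle markers were lower in WT-DES, 1 epithelial marker was higher, and so were 4 of 4 markers each of endothelium and mesothelium. Among adipose markers 4 of 6 were higher, and among skeletal muscle markers 2 of 8 were lower. The part of these shifts in the results below was not tested. WT-DES sample 1 stood apart from the other WT-DES samples in markers of urothelium, the lining of the urinary tract (8.08 against 4.13 to 5.25), and of smooth muscle (9.16 against 6.76 to 7.54). WT-veh sample 4 and αERKO-veh samples 2, 3 and 4 stood apart in markers of skeletal muscle (6.32 to 7.13 against 1.66 to 3.96 in the other 12 samples). Leaving these 4 out keeps 1 αERKO-veh sample, which is then assumed to vary like the other groups.

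Differences were tested with limma on log2(FPKM + 1), a scale on which a change at low FPKM comes out smaller. A gene was called where the adjusted p was 0.05 or less, the mean FPKM differed 1.5-fold or more, and it was above 1 in either group. Of the 9 genes, 5 were called in WT-DES compared with WT-veh, all higher, where 52.7% of all tested genes were called, 28.9% as higher and 23.9% as lower. The count for αERKO-veh compared with WT-veh was 0, against 7.12% of all genes. There limma gave 3 of the 9 an unadjusted p of at most 0.05, against 6222 of all 15988 tested genes. In αERKO-DES compared with αERKO-veh 1 gene was called, against 1.49% of all genes, and in αERKO-DES compared with WT-veh the same single gene, Aldh1a3, against 3.18%. These 3 shares are unstable. For the 1.49%, 239 genes were called with all samples, 653 without αERKO-veh sample 1, 1 to 3 without WT-veh sample 3, αERKO-veh sample 2 or 4, or αERKO-DES sample 1, 2 or 3, and 76 to 558 with any other sample left out. For the 7.12%, 1139 were called with all samples, 418 without αERKO-veh sample 2, 715 without WT-veh sample 3, and 7 without the 4 samples high in skeletal muscle markers. For the 3.18%, 508 were called with all samples, 883 without αERKO-DES sample 1, 199 to 259 without WT-veh sample 3 or 4 or αERKO-DES sample 3 or 4, and 208 without the 4 samples. In αERKO-DES compared with WT-DES 7 were called, 6 lower and 1 higher, against 53.4% of all genes, 29.6% lower and 23.7% higher. The interaction, which is the WT change with DES less the αERKO change, passed for 3 genes, against 56.4% of all genes. The median log2 change of the 9 genes was 0.60 in WT-DES compared with WT-veh and -0.10 in αERKO-DES compared with αERKO-veh, and over all tested genes it was -0.01 and 0.02.

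**Figure D1:**
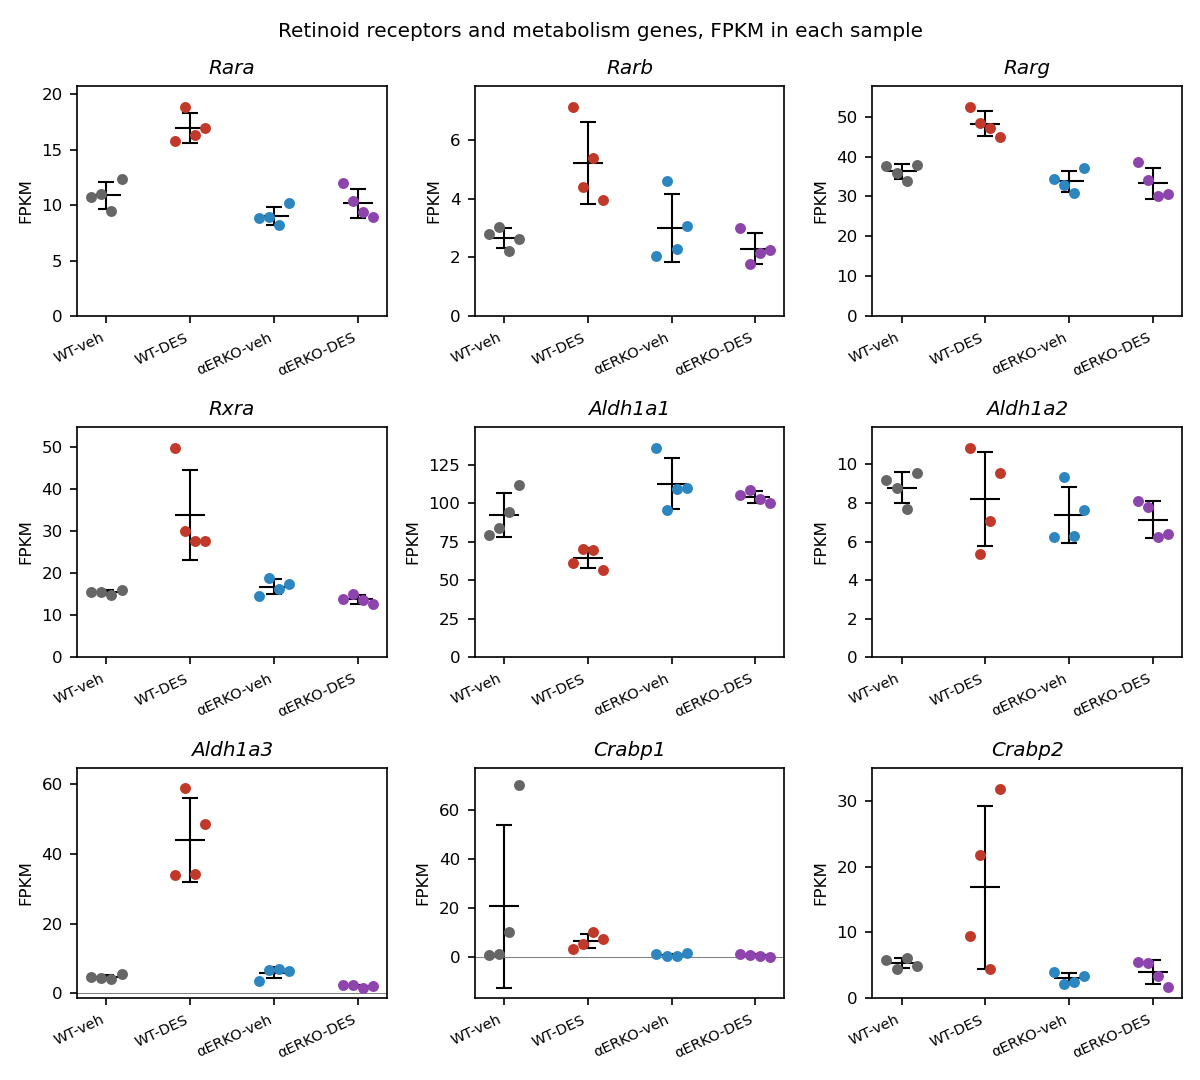
FPKM of the 9 genes in each of the 16 samples (points, samples 1 to 4 from left to right in each group), with the mean (long bar) and SD (capped line) of the 4 samples of a group; the lower SD of Crabp1 in WT-veh reaches below 0. Aldh1a3 lies between 33.8 and 58.7 FPKM in WT-DES and at 7.09 or below in the other 12 samples, and single samples stand far above their group for Rxra in WT-DES (49.8 FPKM) and Crabp1 in WT-veh (70.1 FPKM).

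The retinoic acid receptor genes stood in the same order in every group, with Rarg at the highest mean level, Rara next and Rarb lowest. Rarg held a mean of 68.5% of their summed FPKM in WT-DES, and of 72.9% in WT-veh, 73.8% in αERKO-veh and 72.8% in αERKO-DES. The sum of the Rara, Rarb and Rarg levels was 49.9 ± 3.15 FPKM in WT-veh and 70.5 ± 4.02 FPKM in WT-DES, with 45.9 ± 3.69 FPKM in αERKO-veh and 45.8 ± 5.58 FPKM for αERKO-DES (SD, n = 4), and the WT-DES samples lay above all others. All of these receptors were at their highest mean in WT-DES.

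Rara (chr11:98927818-98974942, plus strand, GRCm38) encodes the receptor RARα, which is found in most tissues. Its level was 10.7, 11.0, 9.46 and 12.4 FPKM in the WT-veh samples and 15.8, 18.8, 16.3 and 16.9 FPKM in WT-DES. It was 8.83, 8.93, 8.19 and 10.2 FPKM in αERKO-veh and 12.0, 10.3, 9.33 and 8.95 FPKM in αERKO-DES. The WT-DES samples were above all others, and the other groups overlapped. Rara rose in WT-DES compared with WT-veh by 0.60 on the log2 scale (standard error, SE, 0.10, limma adjusted p = 5.62e-05), a ratio of 1.56 that is near the threshold of the call. In αERKO-DES compared with αERKO-veh the log2 change was 0.15 (limma adjusted p = 0.355). The interaction of Rara was 0.45 (limma adjusted p = 0.00881), which is under a 1.5-fold difference and was not called. It was called with sample weights (0.64, limma adjusted p = 0.000136) and under rescaling without the 20 most abundant genes (0.98, limma adjusted p = 3.66e-05). That rescaling shifts the median of all genes by 0.51 in the interaction.

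Rarb (chr14:16430839-16819156, minus strand) is itself a target gene of retinoic acid. Its level was 2.80, 3.05, 2.22 and 2.62 FPKM in WT-veh, and 7.14, 4.41, 5.40 and 3.96 FPKM in WT-DES. It was 2.05, 4.62, 2.30 and 3.06 FPKM in αERKO-veh and 3.02, 1.79, 2.16 and 2.24 FPKM in αERKO-DES. WT-DES and WT-veh did not overlap, but αERKO-veh sample 2 reached into the range of WT-DES. Rarb rose in WT-DES compared with WT-veh by 0.74 on the log2 scale (SE 0.19, limma adjusted p = 0.00263), and by 0.60 without WT-DES sample 1, its highest sample. Under quantile normalization the rise was 0.33 and no longer passed (limma adjusted p = 0.14). In αERKO-DES compared with WT-DES the log2 difference of Rarb was -0.90 (limma adjusted p = 0.000554) and was called. That difference did not pass under quantile normalization either (-0.35, limma adjusted p = 0.114). The log2 change of Rarb was -0.25 in αERKO-DES compared with αERKO-veh (limma adjusted p = 0.427), and the interaction of 0.99 was called (SE 0.27, limma adjusted p = 0.00421). The interaction was 0.38 under quantile normalization (limma adjusted p = 0.226) and 0.63 without the 4 samples high in skeletal muscle markers (limma adjusted p = 0.119).

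The retinoic acid response element of Rarb is a classical one, and it is shown here because Rarb was called while Cyp26a1, the other gene known for such an element, stayed below the filter. The element searched for, DR5, is a direct repeat of the 6 letters AGGTCA or GGGTCA or AGTTCA or GGTTCA with 5 bases between the copies, on either strand. It was present in 32 of 32851 RefSeq promoter windows of GRCm38.p6 (0.0974%), which reach from 250 bases before to 50 bases after a gene's start. Of the 13 windows of 7 of the 9 genes (those for Aldh1a3 and Crabp2 were not in the table), 1 held it, that of Rarb. The palindrome GGTCANNNTGACC, which oestrogen receptors bind and which shares the letters GGTCA with the repeat, was in 23 windows (0.07%) and in 0 of these 13. In the sequences below, read in the direction of the gene, the capitals mark the repeat with its spacer and 6 bases are given on each side.
Rarb: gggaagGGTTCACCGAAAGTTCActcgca
Cyp26a1: taaagaTGAACTTTGGGTGAACTaatttg
The Rarb stretch is chr14:16575507-16575535 on the minus strand, with the repeat 53 to 37 bases before this start, and lies in an untranslated exon of a longer annotated Rarb transcript (GENCODE M21). The Cyp26a1 stretch is chr19:37697770-37697798 on the plus strand, with the repeat on the opposite strand 32 to 16 bases before the start. Cyp26a1, which destroys retinoic acid, was between 0.02 and 0.34 FPKM in the 16 samples and was below the filter.

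Rarg (chr15:102234938-102257517, minus strand) encodes RARγ, which is prominent in epithelia. Its level was 37.6, 35.9, 33.9 and 38.0 FPKM in WT-veh and 52.5, 48.4, 47.2 and 45.0 FPKM in WT-DES. It was 34.3, 32.9, 30.9 and 37.1 FPKM in αERKO-veh and 38.5, 34.1, 30.1 and 30.6 FPKM in αERKO-DES. As with Rara, the WT-DES samples were above all others and the other groups overlapped. The log2 change of Rarg in WT-DES compared with WT-veh was 0.40 (SE 0.08, limma adjusted p = 0.000402) and the ratio of 1.33 was under the threshold of the call. The interaction was 0.42 (limma adjusted p = 0.00403), also under 1.5-fold. Both were larger and called under quantile normalization (0.80 and 0.92, limma adjusted p = 1.66e-07 and 2.42e-06) and under rescaling without the 20 most abundant genes (0.82 and 0.98, limma adjusted p = 1.74e-07 and 1.80e-06). That rescaling shifts the median of all genes by 0.39 in WT-DES compared with WT-veh and by 0.51 in the interaction. With the adjusted p alone and any fold, 7 of the 9 genes differed between WT-DES and WT-veh, the 5 called genes with Rarg and Aldh1a1, against 73.8% of all genes.

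Rxra (chr2:27676440-27762957, plus strand) encodes RXRα, the partner of the retinoic acid receptors and of several other nuclear receptors. Its level was 15.5, 15.5, 14.7 and 16.1 FPKM in WT-veh and 49.8, 30.1, 27.6 and 27.6 FPKM in WT-DES. It was 14.5, 18.8, 16.2 and 17.3 FPKM in αERKO-veh and 13.8, 14.97, 13.5 and 12.6 FPKM in αERKO-DES. Every WT-DES sample was above every other sample, and WT-DES sample 1, the one with the highest urothelium markers, was far above the rest of its group. Rxra rose in WT-DES compared with WT-veh by 1.04 on the log2 scale (SE 0.15, limma adjusted p = 1.33e-05), a ratio of 2.19. Without WT-DES sample 1 the rise was 0.84 (limma adjusted p = 3.69e-07). In αERKO-DES compared with αERKO-veh the change of Rxra was -0.26 (95% interval -0.57 to 0.05, limma adjusted p = 0.268), and the interaction was 1.30 (limma adjusted p = 5.35e-05).

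Of the retinal dehydrogenases, only Aldh1a3 was called in WT-DES compared with WT-veh. Aldh1a3 rose about 9-fold in WT-DES, and Aldh1a2 gave no difference that passed the test. Aldh1a1 was at a lower level with a difference that failed the fold threshold and turned sign under quantile normalization (0.04). The summed FPKM of these genes was 105.9 ± 15 in WT-veh and 116.4 ± 12.5 in WT-DES, with 126.1 ± 14.2 for αERKO-veh and 113.4 ± 4.85 for αERKO-DES (SD, n = 4), and the ranges of all groups overlapped.

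Aldh1a3 (chr7:66390890-66427517, minus strand) encodes RALDH3, known from the developing eye, nose and urogenital tract. Its level was 4.77, 4.36, 4.20 and 5.54 FPKM in WT-veh and 33.8, 58.7, 34.3 and 48.6 FPKM in WT-DES. It was 3.57, 6.72, 7.09 and 6.30 FPKM in αERKO-veh and 2.22, 2.47, 1.47 and 2.13 FPKM in αERKO-DES. The lowest WT-DES sample was thus above all 12 samples of the other groups, and all αERKO-DES samples were below all others. Aldh1a3 rose in WT-DES compared with WT-veh by 2.94 on the log2 scale (SE 0.20, limma adjusted p = 8.49e-09), a ratio of 9.30. Among the mean levels of all tested genes it moved from percentile 32.2 in WT-veh to percentile 87.4 in WT-DES.

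In the mice without ERα the difference of Aldh1a3 had the opposite sign. It fell in αERKO-DES compared with αERKO-veh by 1.15 on the log2 scale (SE 0.20, limma adjusted p = 0.0341), to a level 2.86-fold lower. It was also lower in αERKO-DES than in WT-veh, with a log2 difference of -0.90 (limma adjusted p = 0.0156), and these comparisons share the αERKO-DES samples. The latter did not pass without WT-veh sample 4 (-0.83, limma adjusted p = 0.0561) or αERKO-DES sample 3 (-0.80, limma adjusted p = 0.0617). The interaction was 4.09 (limma adjusted p = 3.20e-08). With αERKO-veh sample 2 or 4, WT-veh sample 3 or αERKO-DES sample 1, 2 or 3 left out, the change in αERKO-DES compared with αERKO-veh was of like size, from -1.21 to -1.05, but did not pass (limma adjusted p from 0.053 to 0.125). Without the 4 samples high in skeletal muscle markers, which include the 3 highest αERKO-veh samples, it was -0.58 (limma adjusted p = 1.0). Between these groups 5 of 8 skeletal muscle markers were called lower in αERKO-DES, where their mean log2(FPKM + 1) was 2.13 to 2.71 against 3.96 to 7.13. So were 4 of 6 adipose markers, at 0.838 to 1.76 against 1.99 to 5.49, and 5 of 6 were called lower in αERKO-DES than in WT-veh (3.16 to 5.33). Of the fibroblast markers 1 of 7 was lower in αERKO-DES than in αERKO-veh and 3 of 7 were lower than in WT-veh, and 1 of 4 markers each of endothelium and prostate was lower than in αERKO-veh. The part of fat and of these other cells in the differences of Aldh1a3 was not tested. The rise in WT was 3.01 without those 4 samples and 3.05 without WT-DES sample 1.

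Aldh1a1 (chr19:20492715-20643465, plus strand) encodes RALDH1, an enzyme of many epithelia, and was the most abundant of the 9 genes in every group. Its level was 79.1, 84.2, 94.4 and 112 FPKM in WT-veh and 61.1, 70.2, 69.3 and 56.5 FPKM in WT-DES. It was 136, 95.9, 109 and 110 FPKM in αERKO-veh and 106, 109, 103 and 99.9 FPKM in αERKO-DES. The WT-DES samples were below all others. The log2 change of Aldh1a1 in WT-DES compared with WT-veh was -0.51 (SE 0.11, limma adjusted p = 0.000968), a level 1.44-fold lower that missed the threshold of 1.5, and it was 0.04 under quantile normalization (limma adjusted p = 0.742). Without WT-veh sample 1, the lowest of its group, it was -0.58 and passed the threshold (limma adjusted p = 0.000609). In αERKO-DES compared with WT-DES it was higher by 0.69 (limma adjusted p = 6.21e-05) and called, but by 0.16 under quantile normalization (limma adjusted p = 0.192) and 0.31 under rescaling without the 20 most abundant genes (limma adjusted p = 0.0145), which were not called. That rescaling shifts the median of all genes by -0.34 in this comparison. Aldh1a7, a close paralogue whose reads may be split with Aldh1a1, was at 11.6 to 27.1 FPKM in WT-veh and 17.1 to 39.7 FPKM in WT-DES, which overlapped.

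Aldh1a2 (chr9:71215789-71296243, plus strand) encodes RALDH2, the main enzyme of retinoic acid synthesis in embryonic mesenchyme. Its level was 9.20, 8.77, 7.67 and 9.55 FPKM in WT-veh and 10.9, 5.37, 7.08 and 9.54 FPKM in WT-DES. It was 6.24, 9.34, 6.31 and 7.65 FPKM in αERKO-veh and 8.12, 7.81, 6.24 and 6.40 FPKM in αERKO-DES. All groups overlapped. The log2 change in WT-DES compared with WT-veh was -0.13, with a 95% interval from -0.49 to 0.24 (limma adjusted p = 0.517), and in αERKO-DES compared with αERKO-veh -0.03, from -0.40 to 0.33 (limma adjusted p = 0.929).

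The makeup of the retinal dehydrogenase transcripts therefore differed in WT-DES. Aldh1a3 held 5.13%, 4.48%, 3.95% and 4.37% of the summed FPKM in the WT-veh samples and 32.0%, 43.7%, 31.0% and 42.4% in WT-DES. It held 2.45% to 6.00% across αERKO-veh and 1.33% to 2.08% across αERKO-DES. The mean share of Aldh1a1 was 87.1% in WT-veh and 55.5% in WT-DES, where the samples ranged from 49.3% to 62.6%. These shares are ratios within a sample and do not depend on any factor by which a whole sample is scaled. Quantile normalization is not of that kind, since it alters the ratios within a sample.

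**Figure D2:**
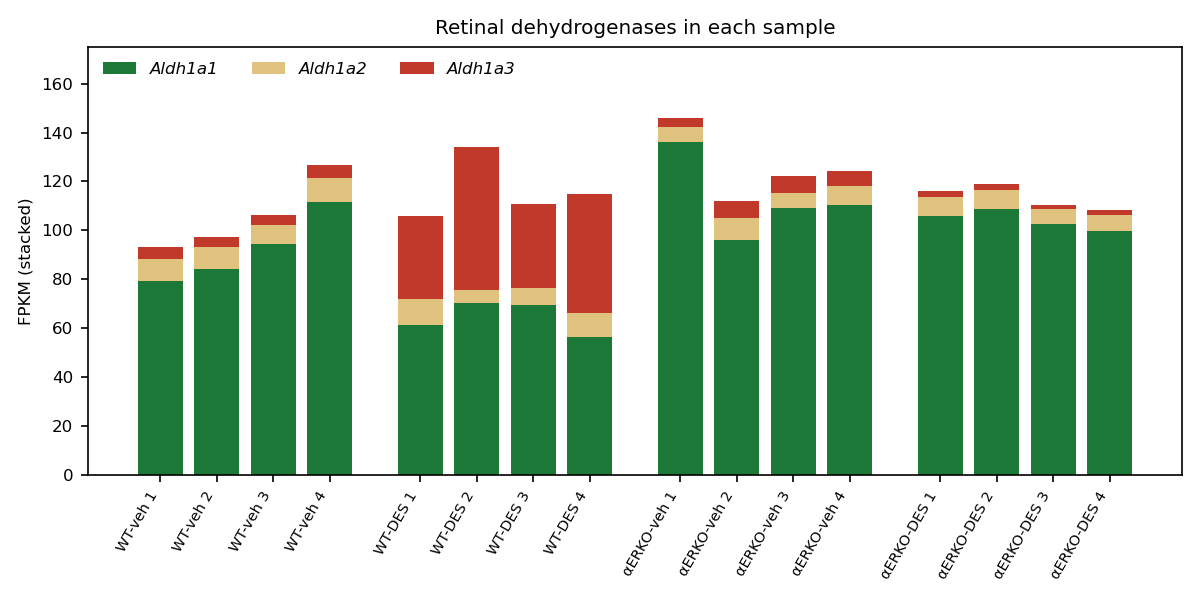
Stacked FPKM of Aldh1a1, Aldh1a2 and Aldh1a3 (y axis) in each of the 16 samples (x axis). The red Aldh1a3 segment makes up 31.0% to 43.7% of the bar in the WT-DES samples and at most 6.00% in all others, while the bar heights overlap between groups.

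The genes whose log2(FPKM + 1) over the 16 samples was most like that of Aldh1a3, among 12463 tested genes with a mean of at least 5 FPKM in 1 group, were Ttc9, Clip4, Trim35, Rnf144a and Rbm24, with Pearson's r from 0.983 to 0.989. Their mean levels in WT-veh and WT-DES were 0.98 and 7.17 FPKM for Ttc9, and 3.0 and 22.8 FPKM for Rbm24, which encodes an RNA-binding protein of muscle. Each of the 5 had its highest mean in WT-DES and its lowest in αERKO-DES, as Aldh1a3 did. The genes most like Aldh1a1 were Gucd1, Fkbp5, Gtpbp8, Pdlim2 and Rnf115, with r from 0.903 to 0.913. Fkbp5, a co-chaperone of steroid receptors and a known androgen-responsive gene, had a mean of 45.8 FPKM in WT-veh and 15.2 FPKM in WT-DES, and of 79.7 and 77.8 FPKM in αERKO-veh and αERKO-DES. The 16 points of each correlation share the group structure, so r describes likeness only.

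The binding proteins varied widely between samples of 1 group, Crabp1 in WT-veh and Crabp2 in WT-DES. Crabp2 (chr3:87948666-87953376, plus strand) encodes a protein that hands retinoic acid to its receptors. Its level was 5.80, 4.4, 6.08 and 4.88 FPKM in WT-veh and 9.41, 21.8, 4.4 and 31.8 FPKM in WT-DES. It was 3.94, 2.20, 2.41 and 3.42 FPKM in αERKO-veh and 5.50, 5.27, 3.33 and 1.72 FPKM in αERKO-DES. WT-DES sample 3 was at the lowest level of WT-veh, while the other 3 were above all samples of the other groups. Crabp2 rose in WT-DES compared with WT-veh by 1.19 on the log2 scale (SE 0.43, limma adjusted p = 0.0217). It did not pass without WT-DES sample 2 (limma adjusted p = 0.0711) or sample 4 (limma adjusted p = 0.0834), nor without the 4 samples high in skeletal muscle markers (1.17, limma adjusted p = 0.0746). The interaction of Crabp2 was 0.94 and did not pass (95% interval -0.37 to 2.25, limma adjusted p = 0.18), but it was 1.41 and passed without WT-DES sample 3 (limma adjusted p = 0.0172). It also passed with the correction for transcript length (1.55, limma adjusted p = 0.0267) and under rescaling without the 20 most abundant genes (1.43, limma adjusted p = 0.0491), which shifts all genes.

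Markers of stratified squamous epithelium, such as Krt13, Krt6a and Sprr1b, were at a mean log2(FPKM + 1) of 2.17, 3.03, 1.93 and 4.97 in the WT-DES samples, in the same order as Crabp2, and at 0.41 to 1.07 in the other 12. The 6 genes of that list were chosen after values had been seen, their summed level was 63.5 to 347.5 FPKM in WT-DES and at most 49.7 elsewhere, and their part in the level of Crabp2 was not tested.

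Crabp1 (chr9:54764748-54773110, plus strand) encodes the other cytoplasmic binding protein, which is linked to the turnover of retinoic acid. Its level was 0.78, 1.22, 10.2 and 70.1 FPKM in WT-veh and 3.24, 5.30, 10.1 and 7.39 FPKM in WT-DES. It was 1.12, 0.44, 0.53 and 1.40 FPKM in αERKO-veh and 1.24, 0.60, 0.24 and 0.09 FPKM in αERKO-DES. WT-veh spanned the whole range of WT-DES, while all 8 αERKO samples were below the lowest WT-DES sample. The log2 change in WT-DES compared with WT-veh was -0.09, with an interval from -1.86 to 1.69, so that no difference could be resolved (limma adjusted p = 0.933). Crabp1 was lower in αERKO-DES than in WT-DES with a log2 difference of -2.25 (SE 0.83, limma adjusted p = 0.0237). The difference was of like size but did not pass without WT-DES sample 3 (-2.03, limma adjusted p = 0.0602) or αERKO-DES sample 3 (-2.16, limma adjusted p = 0.0507) or 4 (-2.10, limma adjusted p = 0.0548). Quantile normalization gave -1.83, which missed the threshold (limma adjusted p = 0.0541). WT-veh sample 4, at 70.1 FPKM, was among the samples high in skeletal muscle markers. The other samples high in them, αERKO-veh samples 2, 3 and 4, had 0.44 to 1.40 FPKM, and the part of muscle in the level of Crabp1 was not tested.

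**Figure D3:**
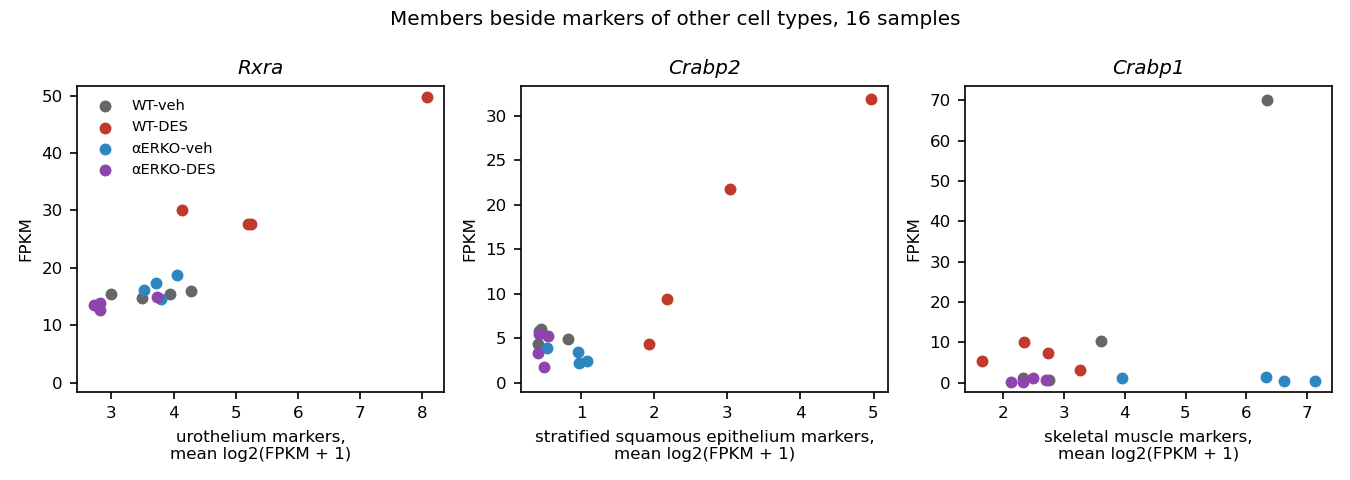
FPKM of Rxra, Crabp2 and Crabp1 (y axes) against the mean log2(FPKM + 1) of marker genes of urothelium, stratified squamous epithelium and skeletal muscle (x axes) in the 16 samples, coloured by group. WT-DES sample 1 is the highest point in Rxra (49.8 FPKM) and urothelium markers (8.08), and of the 4 samples high in skeletal muscle markers only WT-veh sample 4 has Crabp1 above 1.40 FPKM.

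Side by side, the log2 changes with DES in WT and in αERKO were 0.60 and 0.15 for Rara, 0.74 and -0.25 for Rarb, 0.40 and -0.02 for Rarg, and 1.04 and -0.26 for Rxra. They were -0.51 and -0.10 for Aldh1a1, -0.13 and -0.03 for Aldh1a2, and 2.94 and -1.15 for Aldh1a3. For Crabp1 they were -0.09 and -0.30, and for Crabp2 1.19 and 0.25. The interaction was called for Aldh1a3, Rxra and Rarb, and it had an adjusted p of at most 0.05 below the fold threshold for Rara, Rarg and Aldh1a1 (-0.41, limma adjusted p = 0.0353). The sign for Aldh1a1 turned under quantile normalization (0.31) and under rescaling without the 20 most abundant genes (0.15).

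**Figure D4:**
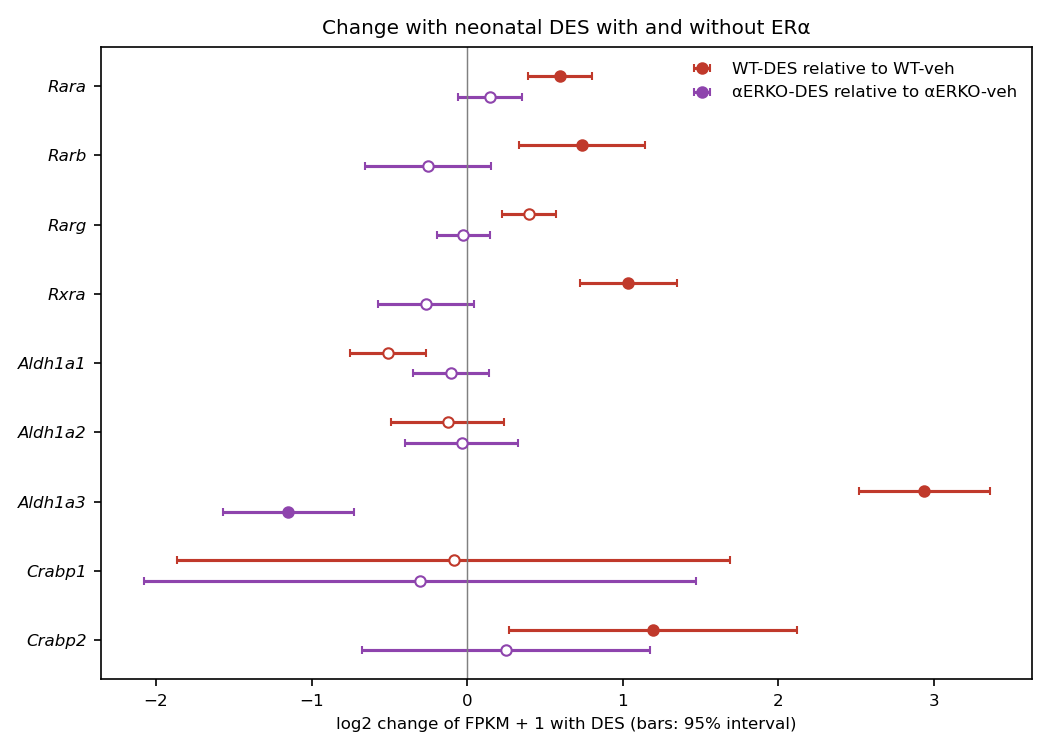
Log2 change of FPKM + 1 with DES (x axis) for the 9 genes in WT (red) and αERKO (purple), with 95% intervals from limma and filled points where the gene was called. Aldh1a3 lies at 2.94 in WT and -1.15 in αERKO, and for Rara, Rarb, Rarg and Rxra the interval includes 0 in αERKO and not in WT.

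The SV secretory genes take a large share of the FPKM, so all values were also rescaled to equal totals without the 20 most abundant genes. This shifted the median of the log2 changes over all tested genes by 0.39 in WT-DES compared with WT-veh and by 0.51 in the interaction. On that scale the changes were 1.01 for Rara, 1.09 for Rarb, 0.82 for Rarg, 1.45 for Rxra and 3.34 for Aldh1a3, all above the shift. Aldh1a1 was at -0.08 on that scale, below the shift, with no difference that passed (limma adjusted p = 0.502).

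Without DES, no call was made among the 9 genes between the mice lacking ERα and WT. Of the markers, 3 of 8 for skeletal muscle and 2 of 4 for endothelium (mean log2(FPKM + 1) 3.47 to 4.26 against 3.18 to 3.41) were called higher in αERKO-veh, and their part in the values below was not tested. The unadjusted p was at most 0.05 for Aldh1a1 (log2 change 0.29, limma adjusted p = 0.0782), Rara (-0.24, limma adjusted p = 0.0789) and Crabp1 (-2.03, limma adjusted p = 0.0843) in αERKO-veh compared with WT-veh. The same held for 6222 of all 15988 tested genes. Crabp1 was called without WT-veh sample 1 (-2.73, limma adjusted p = 0.0312) or sample 2 (-2.62, limma adjusted p = 0.0349). Crabp2 was the 1 gene whose samples did not overlap between these groups, at a mean of 5.29 ± 0.784 FPKM in WT-veh and 2.99 ± 0.826 FPKM in αERKO-veh (SD, n = 4), and its log2 change of -0.67 did not pass (limma adjusted p = 0.272). Fitted on only these 2 groups, the same change was called (limma adjusted p = 0.0248).

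A list of 41 further genes of retinoid uptake, metabolism and response was read beside the 9, and 29 of them passed the filter. In WT-DES compared with WT-veh 17 of the 29 were called, 11 higher and 6 lower, where 52.7% of all tested genes were called, 28.9% higher and 23.9% lower. Of the 11, Lrat and Dhrs9 passed the filter only through WT-DES and so had to be higher there, and no p is given for them. Adh7 and Cyp26b1 had WT-veh means under 1 FPKM, so they could be called only as higher. The median log2 change over the 29 was 0.35, against -0.01 over all tested genes. In αERKO-veh compared with WT-veh 3 were called, against 7.12% of all genes. In αERKO-DES compared with αERKO-veh 0 were called, against 1.49%. There limma gave 6 an unadjusted p of at most 0.05, against 4042 of all 15988 tested genes. The interaction was called for 20 of the 29, 14 of them positive with Lrat and Dhrs9 included, against 56.4% of all genes. Genes listed under 2 roles are counted under both below, and the counts by role stand against the same 28.9% higher and 23.9% lower.

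Of the 7 genes of uptake and storage, 3 were called higher in WT-DES, Lrat among them, and 1 lower. Rbp4, the retinol carrier of blood, was at 7.83, 3.40, 8.55 and 11.2 FPKM in WT-veh and 46.6, 71.7, 36.8 and 65.7 FPKM in WT-DES, a log2 change of 2.73 (SE 0.44, limma adjusted p = 5.08e-05). Fat cells also express Rbp4, and adipose markers were at a mean log2(FPKM + 1) of 4.62, 3.16, 4.73 and 5.33 in the same WT-veh samples and 5.71, 6.51, 5.33 and 6.59 in WT-DES. In αERKO-veh, Rbp4 was at 4.71, 11.8, 1.5 and 5.65 FPKM and the adipose markers at 3.98, 5.49, 1.99 and 4.10. In αERKO-DES, Rbp4 was at 3.88, 3.32, 1.27 and 1.29 FPKM and the adipose markers at 1.61, 1.76, 1.38 and 0.838. Samples stood in the same order for both in WT-veh and αERKO-veh. Samples 2 and 4 changed places in WT-DES, as did samples 1 and 2 and samples 3 and 4 in αERKO-DES. Between WT-veh and WT-DES 4 of the 6 adipose markers were called, all higher with DES, and the part of fat in the level of Rbp4 was not tested. Lrat, which stores retinol as an ester, was at 0.04 to 0.07 FPKM in WT-veh and 0.69 to 1.57 FPKM in WT-DES (log2 change 0.94). Its mean was above 1 FPKM in WT-DES only, which alone brought it past the filter. The call of Lrat was lost under quantile normalization (0.63) and with the correction for transcript length (0.70). Fabp5, a lipid carrier that can bring retinoic acid to Ppard, fell from 43.4 to 57.8 FPKM in WT-veh to 16.1 to 32.8 FPKM in WT-DES (log2 change -1.01, limma adjusted p = 7.37e-05), by less than 1.5-fold after rescaling without the 20 most abundant genes (-0.585). Ppard, the nuclear receptor it serves, also fell, from 36.3 to 40.1 FPKM to 13.9 to 22.9 FPKM (log2 change -1.13, limma adjusted p = 4.73e-07).

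Of the retinol and retinal dehydrogenases, 12 of 16 passed the filter, and 3 were called higher, Dhrs9 among them, and 4 lower. Adh7, a retinol-oxidising alcohol dehydrogenase of stratified epithelia, was at 0.58, 0.22, 0.44 and 1.11 FPKM in WT-veh and 33.9, 4.60, 6.84 and 5.52 FPKM in WT-DES. Its highest sample was WT-DES sample 1, and the log2 change of 2.68 (limma adjusted p = 7.06e-05) was 2.08 without it (limma adjusted p = 4.27e-06). Dhrs9, a retinol dehydrogenase, was at 0.02 to 0.07 FPKM in WT-veh and 0.65 to 2.34 FPKM in WT-DES (log2 change 1.18). It too passed the filter through WT-DES alone, and its call was lost under quantile normalization (0.86). The ones that fell were Rdh10, the main retinol dehydrogenase of the embryo (-0.85), Dhrs4 (-0.92), Adh1 (-0.87) and Adh5 (-0.73), which were named after their values were seen.

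Both tested genes of breakdown rose in WT-DES. Cyp26b1, which clears retinoic acid, was at 0.60, 0.25, 0.19 and 0.41 FPKM in WT-veh and 1.76, 1.38, 2.87 and 1.5 FPKM in WT-DES (log2 change 1.06, limma adjusted p = 0.00614). Under quantile normalization the change was 0.64 and did not pass (limma adjusted p = 0.0642), nor did the interaction (0.85, limma adjusted p = 0.0866), which was 1.47 without it. Cyp26b1 was at 4.15 FPKM in αERKO-veh sample 2, above all WT-DES samples, and at 0.35 to 0.73 FPKM in the other αERKO-veh samples. Besides WT-DES, it passed the filter only through αERKO-veh, where sample 2 alone exceeded 1 FPKM. With its WT-veh mean under 1 FPKM, it could be called only as higher in WT-DES. Cyp2s1, a cytochrome P450 that can act on retinoic acid, was at 2.29 to 2.88 FPKM in WT-veh and 21.6, 8.97, 6.75 and 6.97 FPKM in WT-DES (log2 change 1.65, limma adjusted p = 3.02e-05), again highest in WT-DES sample 1 and at a change of 1.30 without it.

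Of the target genes, 7 of 11 passed the filter and 5 rose in WT-DES. Tgm2, a transglutaminase induced by retinoic acid, was at 53.8 to 70.6 FPKM in WT-veh and 105.8 to 175.9 FPKM in WT-DES (log2 change 1.05, limma adjusted p = 1.49e-05). Nrip1, a co-repressor of nuclear receptors that both retinoic acid and oestrogen can induce, rose in WT-DES (1.14, limma adjusted p = 0.00212) and was also higher in αERKO-veh than in WT-veh (1.17, limma adjusted p = 0.0122). Its level was 7.5, 8.67, 6.55 and 3.76 FPKM in WT-veh, 12.7 to 17.6 FPKM in WT-DES and 11.2 to 20.7 FPKM in αERKO-veh. These comparisons share the WT-veh samples. Without the 4 samples high in skeletal muscle markers the difference of Nrip1 between αERKO-veh and WT-veh was 0.51 (limma adjusted p = 0.874), and its interaction, otherwise 1.72, was 1.06 (limma adjusted p = 0.103), so that neither passed. Rarres1, a retinoic acid receptor responder gene, was at 1.05 to 1.36 FPKM in WT-veh and 1.02 to 1.24 FPKM in WT-DES, but 3.27 to 5.34 FPKM in αERKO-veh and 4.76 to 12.9 FPKM in αERKO-DES, so that the αERKO samples were above all WT samples. It was higher in αERKO-veh than in WT-veh by 1.25 on the log2 scale (limma adjusted p = 0.00499), and without the 4 samples by 1.55, which did not pass (limma adjusted p = 0.425). Fabp5 was called there at -0.59 (limma adjusted p = 0.0208), near the fold threshold. It did not pass under quantile normalization (-0.47, limma adjusted p = 0.0835), under rescaling without the 20 most abundant genes (-0.42, limma adjusted p = 0.0621), or without WT-veh sample 4 (-0.52, limma adjusted p = 0.0655), αERKO-veh sample 2 (-0.52, limma adjusted p = 0.0752) or the 4 samples (-0.44, limma adjusted p = 0.809).

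**Figure D5:**
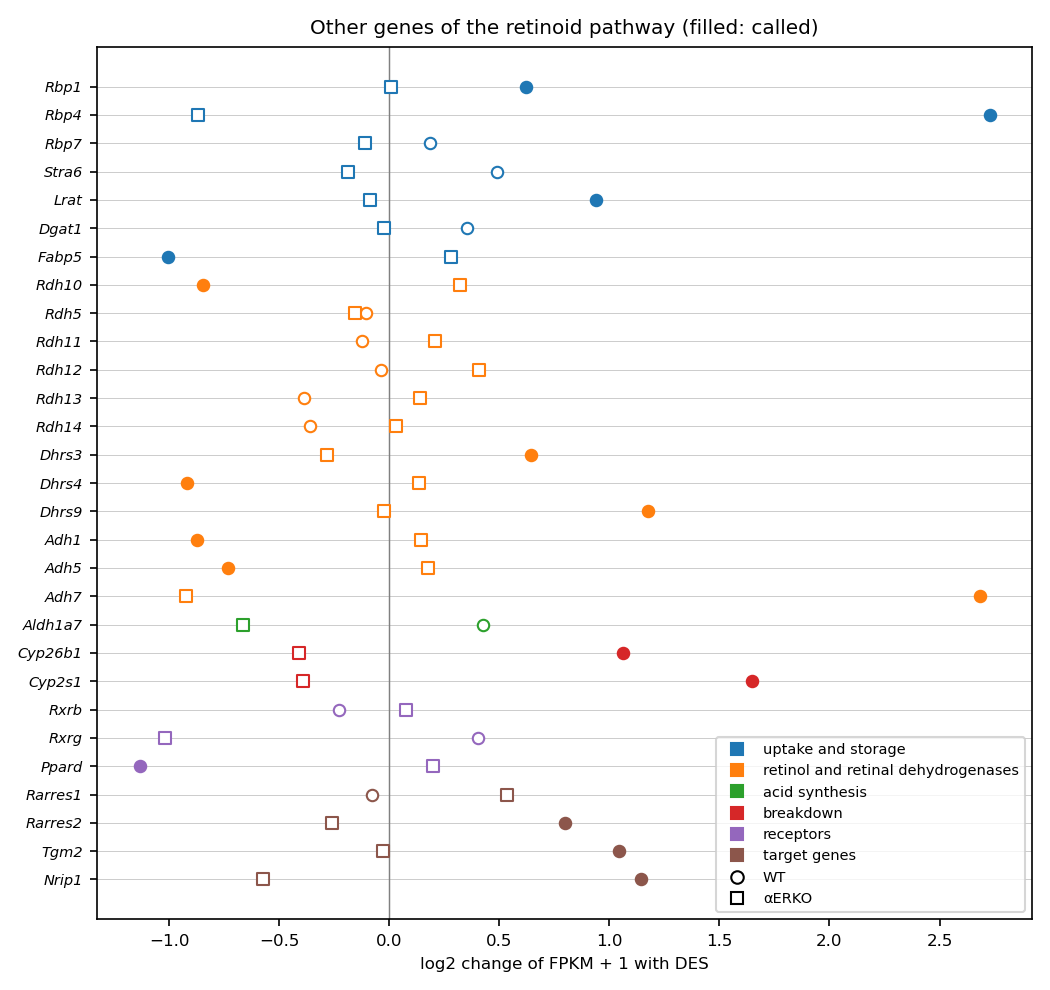
Log2 change of FPKM + 1 with DES (x axis) in WT (circles) and αERKO (squares) for the 29 further retinoid pathway genes that were tested, coloured by role and filled where called. Of the WT circles 17 are filled, with Rbp4 (2.73) and Adh7 (2.68) farthest to the right and Ppard (-1.13) farthest to the left, and 0 of the αERKO squares are filled.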

How the data were processed

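RNA-seq of 16 SV samples was analysed. Expression was deposited as FPKM. The authors filtered paired-end reads on quality, aligned them to mm10 with TopHat2 2.0.4, and assembled them with Cufflinks 2.0.2; the gene annotation and any scaling between libraries are not given in the sources used here. FPKM hold no counts, so depth is unknown and precision rests on the 4 samples per group.

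A gene was tested where its mean FPKM exceeded 1 in any group, which left 15988. The test was limma 3.58.1 (R 4.3.3) on log2(FPKM + 1), as 1 model of all samples with group means, a variance trend in eBayes and Benjamini-Hochberg adjustment over every tested gene. Calls used the study's thresholds with limma in place of Cuffdiff. For the interaction, the adjusted p had to be 0.05 or less and the difference 1.5-fold or more. The steps were tested on simulated data. Coordinates and transcript lengths are from GENCODE M21 (GRCm38), and promoter sequences from RefSeq (GRCm38.p6).

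The 9 genes, the pathway list and the marker lists were chosen with earlier results of these data known, and the urothelium and squamous lists after values were seen. Named genes were the 9, Esr1, the 10 pathway genes called for WT-DES compared with WT-veh with the largest log2 change, those called in αERKO-veh compared with WT-veh or αERKO-DES compared with αERKO-veh, and the 5 most like the 2 genes with the largest rise and fall. Alternatives were a pseudocount of 0.1, no minimum or a mean FPKM above 5, only the 2 groups compared, sample weights, a replicate block, 3 other scalings, a correction for transcript length, and leaving out each sample in turn.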

Additional observations from a re-analysis of the deposited data

Results flagged for a closer look

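Samples were checked against their group by the gap to the nearest sample over the whole range, in 80 groups of 4 samples, of which 6 passed the 95% critical value of Dixon's ratio, where chance gives about 1 in 20. A single sample stood above its group for Rxra in WT-DES (49.8 FPKM), Crabp1 in WT-veh (70.1 FPKM), Adh7 in WT-DES (33.9 FPKM), Cyp2s1 in WT-DES (21.6 FPKM) and in WT-veh (2.88 FPKM), and Cyp26b1 in αERKO-veh (4.15 FPKM). The high sample of Rxra, Adh7 and Cyp2s1 in WT-DES was the same one, WT-DES sample 1, which also had the highest urothelium and smooth muscle markers of its group.

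The change with DES differed between WT and αERKO by the limma interaction, given as the WT log2 change less the αERKO one, for Rarb (0.99), Rxra (1.30) and Aldh1a3 (4.09). Among the named pathway genes it was positive for Rbp4 (3.59), Adh7 (3.61), Cyp2s1 (2.04), Dhrs9 (1.20), Nrip1 (1.72), Cyp26b1 (1.47), Tgm2 (1.08) and Lrat (1.03), and negative for Ppard (-1.33) and Fabp5 (-1.29). Lrat and Dhrs9 passed the filter only through WT-DES, where they are high, so they had to be higher there. The interactions of Rarb and Cyp26b1 did not pass under quantile normalization, nor those of Rarb and Nrip1 without the 4 samples high in skeletal muscle markers.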

How the results depend on the processing

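The rise of Aldh1a3, Rxra and Rara in WT-DES compared with WT-veh kept its direction under every alternative run, and the call of Aldh1a3 and Rxra held under all of them. Rara missed the fold threshold without WT-veh sample 3, Rarb missed the test under quantile normalization, and Crabp2 missed it under quantile normalization (adjusted p = 0.074) and with only the 2 groups compared (0.066). Rarg, not called in the main test, was called at 0.80 under quantile normalization and 0.82 under rescaling without the 20 most abundant genes, and Aldh1a1 without WT-veh sample 1. Leaving out 1 sample at a time, the number of the 9 genes called was 4 to 6 in WT-DES compared with WT-veh, 0 to 1 in αERKO-veh compared with WT-veh and in αERKO-DES compared with αERKO-veh, 0 to 2 in αERKO-DES compared with WT-veh, 6 to 8 in αERKO-DES compared with WT-DES and 3 to 4 for the interaction. For the pathway list it was 16 to 20, 3 to 5, 0 to 1, 2 to 5, 19 to 22 and 19 to 21 in the same comparisons. Of the 9, in αERKO-DES compared with αERKO-veh 0 were called under quantile normalization, with only the 2 groups compared and without the 4 samples high in skeletal muscle markers, an alternative chosen after seeing the data. In αERKO-DES compared with WT-veh 0 were called at a mean FPKM above 5, since both means of Aldh1a3 (4.72 and 2.07 FPKM) are under that minimum, with its change at -0.90 (adjusted p = 0.0128). Of the 9, 1 was called in αERKO-veh compared with WT-veh with only the 2 groups (Crabp2), and 6 for the interaction under rescaling without the 20 most abundant genes. Over all genes, 1177 of 15988 were called with only those 2 groups and 9251 of 16198 for the interaction under rescaling. For pathway genes, sample weights gave 5 in αERKO-veh compared with WT-veh, 5 in αERKO-DES compared with αERKO-veh and 4 in αERKO-DES compared with WT-veh. Over all 15988 genes, those weights gave 1685, 1119 and 1002 calls in these comparisons, against 1139, 239 and 508 in the main test. A pseudocount of 0.1 gave 1 pathway gene in αERKO-DES compared with αERKO-veh, against 401 calls over all genes. The cause of the other lost or added calls was not tested.

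Signs turned only for log2 changes that were not called. Under quantile normalization these were Rarg in αERKO-veh compared with WT-veh (0.0025), Aldh1a1 in WT-DES compared with WT-veh (0.0421) and in the interaction (0.31), Aldh1a2 in αERKO-DES compared with αERKO-veh (0.0435) and to WT-DES (0.16), and the interaction of Crabp1 (-0.20). Rescaling shifts the median of all genes by 0.14 in αERKO-veh compared with WT-veh, 0.39 in WT-DES compared with WT-veh and 0.51 in the interaction, and with it turned Rarg in αERKO-veh compared with WT-veh (0.0731), the interaction of Aldh1a1 (0.15), Aldh1a2 in WT-DES compared with WT-veh (0.26) and in the interaction (0.41), and in WT-DES compared with WT-veh Crabp1 (0.28) and Rarres1 (0.16), each still below its shift. The length correction turned Rxra in αERKO-veh compared with WT-veh (-0.013), Aldh1a2 in WT-DES (0.0496) and the interaction (0.14), and Crabp1 (0.45) and Rarres1 (0.29) in WT-DES. Sample weights turned Rarg in αERKO-veh (0.0282), Aldh1a2 in αERKO-DES compared with WT-DES (0.0135) and Crabp1 in WT-DES (0.56), and a pseudocount of 0.1 Crabp1 in WT-DES (0.18). Without the 4 samples these were Rarb (-0.27), Rxra (-0.0638) and Aldh1a3 (-0.25) in αERKO-veh compared with WT-veh, Rarb (0.10), Aldh1a2 (0.16) and Crabp2 (-0.0778) in αERKO-DES compared with αERKO-veh, and Crabp1 in WT-DES (1.00). With 1 sample left out, changes that turned ranged from -0.26 to 0.0382 for Aldh1a2 in WT-DES, -0.0997 to 0.0717 in αERKO-DES compared with αERKO-veh and -0.23 to 0.0725 in the interaction. They ranged from -0.78 to 1.00 for Crabp1 in WT-DES and -0.48 to 1.30 in its interaction, from -0.0875 to 0.21 for Rarb in αERKO-veh, and from -0.094 to 0.0216 for Rarg in αERKO-DES compared with αERKO-veh.

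The replicate numbers did not pair the samples: the deviations of same-numbered samples correlated from -0.215 to 0.277, and in no comparison above 0.1 for all 4 numbers. With the replicate number as a block, the number of the 9 genes called was 0 in αERKO-veh and 5 in WT-DES compared with WT-veh, 1 in αERKO-DES compared with αERKO-veh and to WT-veh, 7 in αERKO-DES compared with WT-DES and 3 for the interaction, as without it. The depth behind FPKM is unknown, and genes near 1 FPKM such as Lrat and Dhrs9 are limited by it. The share of calls that were higher in WT-DES compared with WT-veh was 54.7%, 79.2% after rescaling and 48.5% after quantile normalization; in αERKO-DES compared with αERKO-veh it was 5.86% (14 of 239 calls), 1.33% (3 of 226) and 60% (3 of only 5).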
